A study of Mus musculus with 8 samples.

Results

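The response of mouse hepatocytes to carbon tetrachloride (CCl4) was compared between wild-type mice and mice lacking Hamp, gene by gene, as the interaction of genotype and CCl4. For each gene the interaction was the CCl4 minus oil difference in the knockout minus the same difference in wild type, on the log2(FPKM + 1) scale, which understates the change of low genes. The members were the 10082 of 16337 genes with at least 1 FPKM (read fragments per kilobase of transcript and relative to library size) in at least 2 of the 8 libraries, and the remaining 6255 genes were left out. Just inside that limit, Zfp51, Dennd4b and Ptgds had a second-highest value of 1 FPKM, and just outside it Tmem88, Mgat5 and Tnfrsf21 had 0.99 FPKM. RNA came from primary hepatocytes, isolated by collagenase digestion from livers of male mice 4 weeks of age, either C57BL/6 wild type or Hamp-/-. Each genotype received 12.5% CCl4 in olive oil, or olive oil alone, for 24 h. Each of the 4 groups had 2 libraries, although the design text names 6 mice a group. Nothing states that both libraries of a group are from different animals, and the spread on which the p-values rest may therefore be technical. The deletion is named only as Hamp-/-, and the labels used here give neither its promoter or cell restriction nor a strain for the knockout. The title of the study names apoptosis of hepatocytes and PERK, the stress kinase of the endoplasmic reticulum that Eif2ak3 encodes, as its question.

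Hamp encodes hepcidin, a hepatocyte hormone that keeps iron inside cells by binding the iron exporter ferroportin. CCl4 is converted to a radical by Cyp2e1, a cytochrome P450 of the hepatocytes around the central vein, and these cells are the ones injured first. An interaction can arise from different levels in oil, different levels after CCl4, or both, so each gene past the test was described by its response in each genotype and by its genotype difference under each treatment.

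Hamp checked the labels, with 1805 and 1826 FPKM in wild-type oil, 1273 and 1136 in wild-type CCl4, 2.72 and 0.54 in knockout oil and 0.98 and 0.83 in knockout CCl4. All 4 knockout libraries lay far below all 4 wild-type libraries, and the interaction of Hamp, 0.26 ± 0.51, did not pass the test (limma adjusted p = 0.733). Its value was 0.90 without knockout oil replicate 1, 0.84 without replicate 1 of both knockout groups and -0.32 without replicate 2 of both. No call is read from these refits. Values after ± are standard errors of log2 differences, and every interaction given here passed an FDR of 0.05 unless said otherwise. The knockout libraries spread more than the wild-type ones, with an SD of the log2 difference between both libraries of 0.364 in knockout oil and 0.394 in knockout CCl4 against 0.139 in each wild-type group. Some genes separated libraries in ways the labels do not give, and these were chosen after their values were seen. Nnt, a mitochondrial transhydrogenase deleted in the C57BL/6J substrain, had 12.03 to 16.5 FPKM in the wild-type and 46.02 to 54.7 FPKM in the knockout libraries, so strain background and genotype cannot be told apart. Ddx3y, a Y-linked gene, had 8.17 to 8.85 FPKM in wild type, 4.35 and 0.85 FPKM in knockout oil and 3.55 and 1.25 FPKM in knockout CCl4, although every mouse was described as male. It was lower in replicate 2 than in replicate 1 of both knockout groups, as were Eif2s3y, Kdm5d and Uty. The sex of the mice behind the knockout libraries is thus uncertain, and sex and genotype cannot be told apart either. Markers of hepatocytes held 16.0 to 22.9% of all summed FPKM in each library, and none of the 20 was listed at 0. In bulk samples like these, fewer cells of a type and less RNA per cell cannot be told apart. Saa1 and Saa2, Cyp2a4 and Cyp2a5, the Cyp2c, Mup and Hspa1 genes and Hamp with Hamp2 have near-identical copies, and reads could have been divided between them.

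Genes of amino acid, bile acid and drug metabolism mostly had lower interactions, and acute phase and cytoskeletal genes mostly had higher ones. By limma with Benjamini-Hochberg adjustment over all tested genes, 3355 of 10082 passed an FDR of 0.05, which is 33.3%. A higher interaction was found for 1437 genes (14.3%) and a lower one for 1918 genes (19.0%). Of these calls 42.8% were thus higher, but 53.1% were higher under quantile normalization, which moved the median interaction of all tested genes from -0.089 to 0.015, so directions are relative to that shift. At least a 2-fold interaction was found for 1269 genes (12.6%), 478 higher (4.74%) and 791 lower (7.85%). The interactions ran mostly through the knockout. The response to CCl4 passed the test in 1592 genes in wild type (15.8%) and 5574 in the knockout (55.3%), and the genotype difference in 3368 genes in oil (33.4%) and 5761 after CCl4 (57.1%). The test pooled the spread of all groups, although the knockout libraries spread more. It was thus stricter for wild type than for the knockout, and the response counts are not on equal terms. The SD of the log2 response over all tested genes was 0.454 in wild type and 0.892 in the knockout. Leaving out a wild-type library lowered the count to 2154 and 2063 genes (CCl4 replicates 1 and 2) and to 2056 and 2007 genes (oil replicates 1 and 2). Without replicate 2 of both knockout groups, the libraries with the lowest Y-linked genes, none of the 3355 interactions changed sign. The same held without replicate 1 of both. The 3355 were called with these libraries included, which favours kept signs, and nothing is read from it. Replicate 1 of both knockout groups also had Ddx3y below wild type, so omitting replicate 2 does not remove that difference. In these refits the spread came from the wild-type libraries alone, so their counts of calls cannot be set against 3355.

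Most placed genes responded in the knockout. By response, 1032 genes responded in the knockout alone (10.2% of tested genes), which here means a knockout response past the FDR of at least 1 on the log2 scale and a wild-type response under 0.5 in size. A further 303 responded the same way in both genotypes but more in the knockout (3.01%), and 157 responded in opposite directions (1.56%). Fewer responded the same way but more in wild type (70 genes, 0.694%) or in wild type alone (44 genes, 0.436%), and 1749 met none of these definitions (17.3%). By level, 722 genes differed between genotypes after CCl4 but by under 0.5 in oil (7.16%), 104 differed in oil but by under 0.5 after CCl4 (1.03%), 473 crossed (4.69%), 466 differed the same way under both treatments (4.62%) and 1590 were not placed (15.8%). Both definitions together set 1 group apart from the 3 others. The knockout CCl4 libraries stood apart in 469 genes, above in 205 and below in 264, the knockout oil libraries in 41, those of wild-type oil in 5 and those of wild-type CCl4 in 4.

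**Figure D1:**
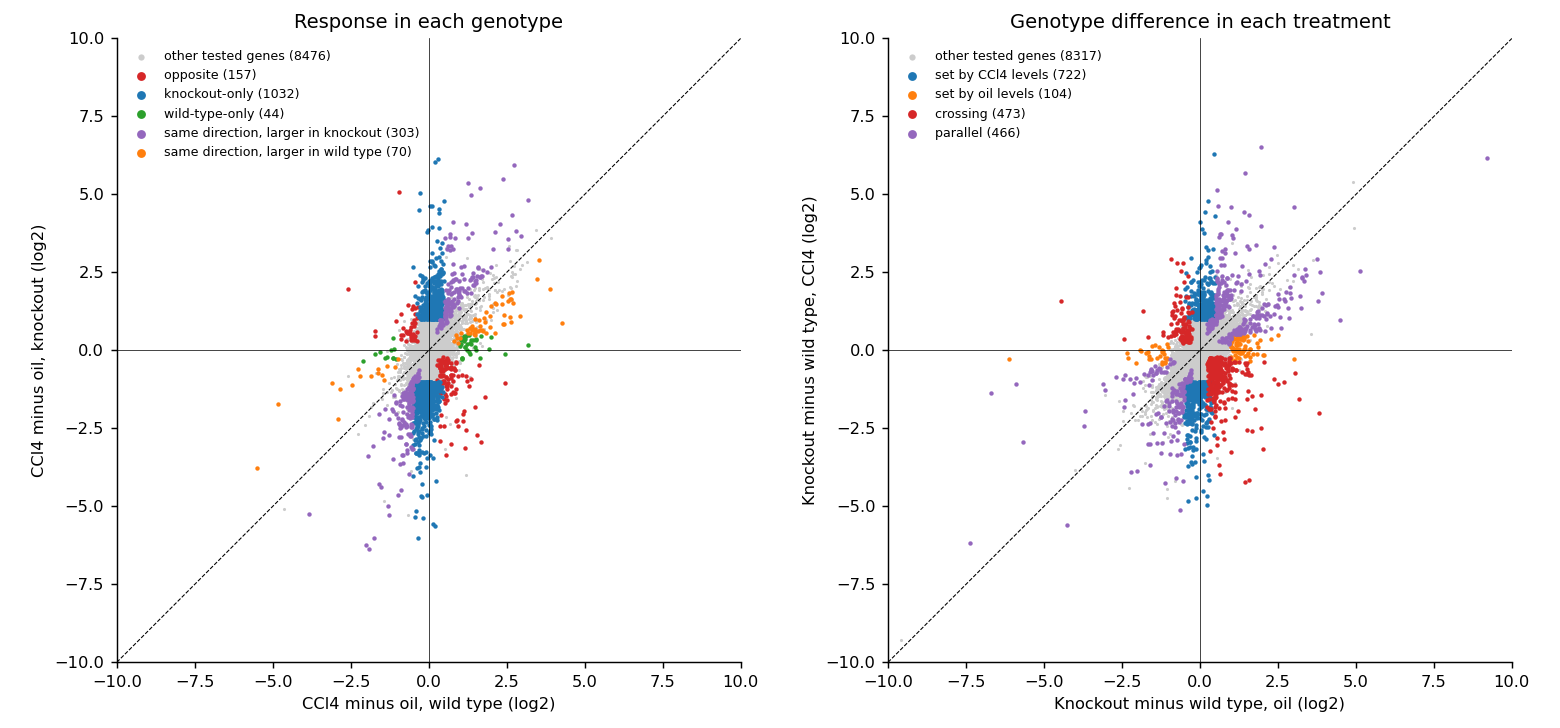
Each point is 1 of the 10082 tested genes, with the CCl4 response in wild type against that in the knockout on the left and the genotype difference in oil against that after CCl4 on the right, all as log2 differences of log2(FPKM + 1) group means of 2 libraries; the dashed line marks equal values and the colours mark the shapes. The cloud is wider along the knockout axis, with an SD of 0.892 against 0.454.

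Genes that responded in opposite directions included enzymes of sugar metabolism and steroid handling, which rose in wild type and fell in the knockout. Of the 157, 112 rose in wild type and fell in the knockout and 45 did the reverse. The median size of their response was 0.55 in wild type and 0.8 in the knockout, and 12 moved by at least 1 in both. In all 157 the libraries lay apart in both genotypes, as they did in opposite directions in 13.6% of all tested genes, but the definition uses those values and nothing is read from it. Leaving out any of the wild-type libraries left 46 to 55 opposite genes, and 37 kept the opposite shape in every refit. Signs stayed opposite in every refit for 156 of 157. These genes were chosen by those signs in the same libraries, so nothing is read from that either.

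Cxcl1, a chemokine that draws neutrophils, had 9.58 and 8.72 FPKM in wild-type oil, 32.2 and 30.5 in wild-type CCl4, 13.9 and 15.9 in knockout oil and 1.24 and 0.89 in knockout CCl4. It was highest in wild-type CCl4 and lowest in knockout CCl4, and no 2 groups overlapped. Its interaction was -4.62 ± 0.17 (limma adjusted p = 1.17e-05), from a rise of 1.67 in wild type and a change of -2.95 in the knockout. Rgn encodes regucalcin, a calcium-binding lactonase of vitamin C synthesis in mice, and it had 268 and 264, 589.8 and 599.8, 419.6 and 390.2 and 52.8 and 39.7 FPKM in the same order of groups. Its knockout oil libraries lay between those of wild type, and its knockout CCl4 libraries were lowest (interaction -4.28 ± 0.18). Hsd17b6, an enzyme of androgen metabolism, had 78.6 and 79.1, 234 and 233, 237 and 271 and 37.2 and 39.2 FPKM. Knockout oil and wild-type CCl4 were close, above both other groups, and the interaction was -4.25 ± 0.12.

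Enzymes of glucose metabolism began from high knockout oil levels. G6pc, the glucose-6-phosphatase that releases glucose, had 96.1 and 87.3 FPKM in wild-type oil and 152 and 151 in wild-type CCl4, against 593 and 616 in knockout oil and 72.7 and 75.4 in knockout CCl4. Pklr, the liver pyruvate kinase, had 33.5 and 32.8 and 76.96 and 77.6 FPKM in wild type, against 267 and 292 and 45.5 and 48 in the knockout, again oil before CCl4. Both rose in wild type and fell in the knockout, with the knockout oil libraries highest, and their interactions were -3.73 ± 0.10 and -3.75 ± 0.10 (limma adjusted p = 7.95e-06 for both). Fasn, the fatty acid synthase, and Scd1, the stearoyl-CoA desaturase, had the same shape, with interactions of -3.26 ± 0.10 and -2.09 ± 0.09. Alas1, the first enzyme of heme synthesis, had -2.22 ± 0.12, and Cpox, a later one, -1.54 ± 0.10.

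Inducible regulators also split. Egr1, an immediate early transcription factor, had 1.5 and 1.49 FPKM in wild-type oil, 12.9 and 12.5 in wild-type CCl4, 55.1 and 55.5 in knockout oil and 25.9 and 26.3 in knockout CCl4. Both knockout groups lay above both wild-type groups, and the interaction was -3.51 ± 0.10, with a response of 2.46 in wild type and -1.06 in the knockout. Socs3, which limits cytokine signalling through STAT3 and was chosen after its values were seen, had 4.12 and 3.48 and 16.3 and 15.1 FPKM in wild type and 23.04 and 25.1 and 7.92 and 7.65 in the knockout, oil first. It was highest in knockout oil, and its interaction was -3.32 ± 0.14. The interferon-inducible Tgtp1 (-1.86 ± 0.13) and the NF-kB inhibitor Nfkbia (-1.28 ± 0.16) rose in wild type and fell in the knockout as well.

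In the reverse direction, Cyp2a5, a P450 that oxidizes coumarin and nicotine, had 158 and 158 FPKM in wild-type oil, 23.7 and 26.6 in wild-type CCl4, 584 and 641 in knockout oil and 2269.5 and 2512 in knockout CCl4. It fell in wild type and rose in the knockout from a level already above wild type (interaction 4.57 ± 0.13, limma adjusted p = 7.95e-06). Sqle, the squalene epoxidase of cholesterol synthesis, had 15.2 and 15.5, 3.98 and 3.91, 8.17 and 8.33 and 12.7 and 13.5 FPKM in that order. Its wild-type CCl4 libraries were lowest, and its interaction was 2.33 ± 0.11. Metallothionein Mt2, a metal-binding protein, had 2.65 ± 0.16, and Bid, a pro-apoptotic member of the BCL2 family, 1.26 ± 0.11.

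**Figure D2:**
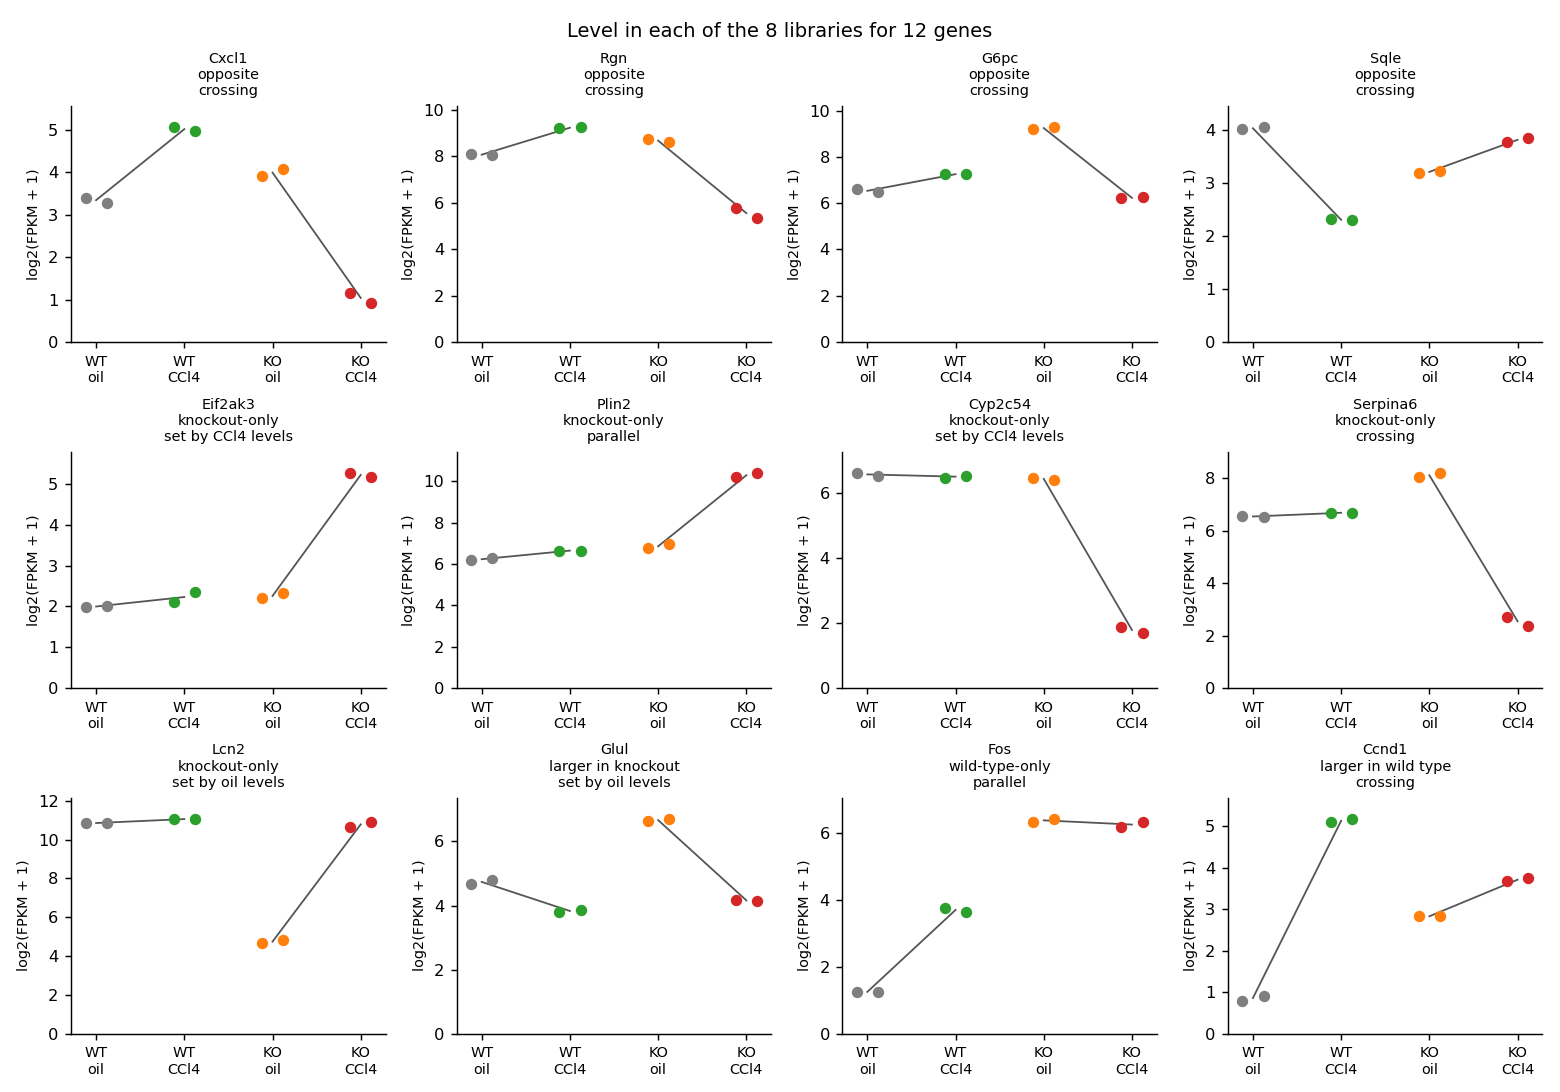
Level as log2(FPKM + 1) in each of the 8 libraries for 12 genes named in the text, with 1 point per library and lines joining the oil and CCl4 means of a genotype; WT is wild type, KO the knockout, and each title gives the gene, its response shape and its level shape. The lines of Cxcl1, Rgn and G6pc rise in wild type and fall in the knockout, while those of Eif2ak3 and Cyp2c54 are near level in wild type.

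The acute phase genes, secreted by hepatocytes under interleukin-6 and interleukin-1, mostly had higher interactions. Of 30 tested, 23 had a higher and 2 a lower interaction, against 14.3% and 19.0% of all tested genes, and their median interaction was 0.96 against -0.09. The median level difference of knockout from wild type was -1.56 in oil and -0.34 after CCl4, against 0.05 and -0.02 over all tested genes. The promoters of Saa3 and Lcn2, the members with the largest interactions, are shown as the 250 bases before the annotated start, 5′ to 3′ on the gene's strand. The sequences are from RefSeq, GRCm38.p6, while the files' build is mm8, and genes were matched by Entrez identifier. Capitals mark TTGCNNAA or its reverse complement, a motif of the type bound by C/EBP factors, and neither it nor the CCAAT motif searched further on contains the other.
Saa3 (chr7:46715677-46715926, minus strand): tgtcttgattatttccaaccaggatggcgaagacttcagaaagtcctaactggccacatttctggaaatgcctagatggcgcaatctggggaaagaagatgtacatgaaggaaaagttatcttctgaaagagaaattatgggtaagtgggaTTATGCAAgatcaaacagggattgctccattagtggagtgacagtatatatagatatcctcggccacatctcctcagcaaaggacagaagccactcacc
Lcn2 (chr2:32387740-32387989, minus strand): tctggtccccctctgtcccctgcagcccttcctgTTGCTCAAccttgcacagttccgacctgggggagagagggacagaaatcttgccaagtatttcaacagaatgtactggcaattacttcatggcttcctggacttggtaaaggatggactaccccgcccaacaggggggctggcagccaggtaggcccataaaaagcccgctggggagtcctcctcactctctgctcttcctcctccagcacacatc
The motif was in 14 of the 22 acute phase promoters that the table held (63.6%) and in 9.65% of the promoters of all 8165 tested genes matched. A match is a run of letters and not a shown binding site.

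Saa3, a serum amyloid A protein, had 209 and 230.5 FPKM in wild-type oil, 121 and 106 in wild-type CCl4, 8.78 and 9.28 in knockout oil and 301 and 386 in knockout CCl4. It fell in wild type and rose in the knockout, where the oil libraries were far below all others (interaction 6.04 ± 0.19, limma adjusted p = 8.08e-06). Lcn2, the siderophore-binding protein lipocalin-2, had 1835 and 1868, 2129.7 and 2133, 24.8 and 26.9 and 1621 and 1922 FPKM in the same order. Only its knockout oil libraries stood low, and its interaction of 5.84 ± 0.13 was set by the oil level, which differed by -6.11, against -0.27 after CCl4. Saa2 and Saa1 had 224 and 225 and 333 and 377 FPKM in knockout oil and 6882 and 8067 and 7489 and 8628 in knockout CCl4. Wild-type libraries held 18583 to 24091 FPKM of Saa2 and 16480 to 21875 FPKM of Saa1, and the interactions were 5.34 ± 0.14 and 4.81 ± 0.15. Both genes rose in the knockout yet stayed below wild type. Lbp, which binds bacterial lipopolysaccharide, met wild type after CCl4, with 46.2 and 52.5 FPKM in knockout oil, 152 and 176 in knockout CCl4 and 163 to 192 FPKM in wild type. Apcs, serum amyloid P, passed wild type, with an interaction of 2.82 ± 0.10. Orm2 and Saa4 were chosen after their values were seen. Orm2, an acid glycoprotein, had an interaction of 2.72 ± 0.16, and Saa4, the constitutive serum amyloid A, was a lower one with -2.10 ± 0.10.

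Responses of the knockout alone that were higher included a lipid droplet gene, a tight junction gene and a fetal liver gene. Of the 1032 knockout-only genes, 420 had a higher and 612 a lower interaction. Afp, alpha-fetoprotein of fetal liver, had 0.21 and 0.21 FPKM in wild-type oil, 0.59 and 0.4 in wild-type CCl4, 0.62 and 0.68 in knockout oil and 119 and 113 in knockout CCl4. Its knockout CCl4 libraries stood alone at the top and the other 6 lay below 1 FPKM (interaction 5.84 ± 0.14). Afp thus passed the filter through its knockout CCl4 libraries alone, and nothing is read from its test. Plin2, which coats lipid droplets, had 71.7 and 76.2, 99.2 and 98.7, 107 and 122 and 1168 and 1336 FPKM in the same order. Knockout CCl4 was again highest with no overlap, and its interaction was 3.02 ± 0.14. Cldn14, a tight junction claudin, had an interaction of 3.85 ± 0.19, from 3.22 and 4.26 FPKM in knockout oil and 62.97 and 70.9 in knockout CCl4, while the 4 wild-type libraries lay between 7.32 and 8.58 FPKM. S100a10, the annexin A2 partner, had 3.24 ± 0.16 and the metal-binding Mt1 3.16 ± 0.19. Tuba1c, a tubulin, reached the wild-type level after CCl4 from 12.4 and 12.7 FPKM in knockout oil to 78.2 and 86.6, against 66.2 to 88.8 FPKM in wild type.

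Knockout-only responses that were lower included P450 enzymes, a plasma carrier and a regulator of lipogenesis. Serpina6, the corticosteroid-binding globulin of plasma, had 93.7 and 91.05 FPKM in wild-type oil, 102 and 102 in wild-type CCl4, 262 and 292 in knockout oil and 5.6 and 4.16 in knockout CCl4. The knockout was highest in oil and lowest after CCl4, and the interaction was -5.71 ± 0.17 (limma adjusted p = 7.95e-06). Rgs16, which limits G-protein signalling, had 5.47 and 5.14, 5.99 and 6.53, 85.2 and 91.1 and 1.13 and 0.51 FPKM in that order. It had the same order of groups and an interaction of -5.84 ± 0.23. Nrep (-4.75 ± 0.21), Thrsp, a regulator of lipogenesis (-4.44 ± 0.13), and Inmt, an amine methyltransferase (-5.67 ± 0.35), were also higher in knockout oil than in wild-type oil and lower than wild type after CCl4.

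Others began near wild type. Cyp2c54, a P450, had 96.5 and 91.8 FPKM in wild-type oil, 87.9 and 91.5 in wild-type CCl4, 86.98 and 84.1 in knockout oil and 2.68 and 2.22 in knockout CCl4. Its first 3 groups lay close together and the knockout CCl4 libraries alone were low, with an interaction of -4.58 ± 0.12. Cyp2c50, another P450, had -5.18 ± 0.28, and Hsd3b3, a steroid dehydrogenase, -4.90 ± 0.18, and none of these 3 differed between genotypes past the test in oil. Apol7a had -4.47 ± 0.14 and was lower in knockout than in wild-type oil, by a log2 difference of -0.63. Cyp7a1, the rate-limiting enzyme of bile acid synthesis, had 26.9 and 12.6 FPKM in knockout oil and 0.15 FPKM in a knockout CCl4 library, and was listed at 0 in the other. Its wild-type libraries lay between 23.5 and 30.5 FPKM, and its interaction was -4.43 ± 0.43. Hpd, of tyrosine breakdown, had -2.74 ± 0.12, and Cxcl12, a chemokine that acts through CXCR4, -3.34 ± 0.10, and each of these was lower in knockout oil by a log2 difference of -0.39.

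Same-direction responses that were larger in the knockout covered the P450 that activates CCl4. Of the 303 genes, 151 had a higher and 152 a lower interaction, and without a single wild-type library 118 to 133 remained in count. Cyp2e1 had 2552 and 2557 FPKM in wild-type oil, 677 and 692 in wild-type CCl4, 3031 and 3219 in knockout oil and 49.8 and 27.7 in knockout CCl4. The oil groups did not differ past the test (knockout minus wild type 0.29), both CCl4 groups were lower, and the interaction was -4.46 ± 0.33 (limma adjusted p = 0.000193). Car3, a carbonic anhydrase of these cells, and Cyp8b1, which makes cholic acid, followed with -4.26 ± 0.14 and -4.24 ± 0.24. Glul, the glutamine synthetase of the hepatocytes next to the central vein, had 24.3 and 27.1, 12.8 and 13.7, 98.2 and 103 and 17.1 and 16.7 FPKM. Its knockout oil libraries stood high and the CCl4 groups were near each other, so the interaction of -1.60 ± 0.12 was set by the oil level.

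Among rises larger in the knockout, Tnfrsf12a, the receptor of the cytokine TWEAK, had 7.48 and 8.6 FPKM in wild-type oil, 24.3 and 20.2 in wild-type CCl4, 8.31 and 9.54 in knockout oil and 284 and 346 in knockout CCl4. The oil groups overlapped in range and the knockout CCl4 libraries were highest (interaction 3.63 ± 0.20). Tubb2a, a tubulin, had 24.8 and 24.2, 81.9 and 76.1, 12.4 and 16.1 and 523 and 601 FPKM. Knockout oil was lowest here, and the interaction was 3.57 ± 0.18. Cyp17a1, a steroid hydroxylase, had 3.34 ± 0.12 and Ly6d, a GPI-anchored surface protein, 3.22 ± 0.18. Of the 34 tested genes of the cytoskeleton and of YAP, the coactivator of growth genes, 22 had a higher and 3 a lower interaction. Over all tested genes 14.3% were higher and 19.0% lower. The median response of the 34 was 1.08 in wild type and 2.22 in the knockout, against 0.04 and -0.03 over all tested genes.

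Wild-type responses larger than those of the knockout were few and often met a knockout that was already moved in oil. Of the 44 wild-type-only genes 11 had a higher and 33 a lower interaction, and of the 70 larger in wild type 16 had a higher and 54 a lower one; without a single wild-type library the latter counted 36 to 39. Fos, an immediate early transcription factor, had 1.38 and 1.38 FPKM in wild-type oil, 12.7 and 11.4 in wild-type CCl4, 80.04 and 84.5 in knockout oil and 71.7 and 79.1 in knockout CCl4. All knockout libraries lay above all wild-type libraries, and the interaction was -2.58 ± 0.12 (limma adjusted p = 3.36e-05). Junb had the same order, with -1.89 ± 0.20. Cyp2a4, a steroid hydroxylase higher in female than in male mouse liver, had 1.68 and 1.6 and 18.1 and 29.2 FPKM in wild type and 1467 and 1639 and 1632 and 1846 in the knockout, oil first. Its interaction of -3.02 ± 0.29 thus lay over a genotype difference of 9.20 in oil, in which sex and genotype cannot be told apart. Ccnd1, cyclin D1, had 0.74 and 0.89, 32.98 and 34.96, 6.11 and 6.09 and 11.8 and 12.4 FPKM in the order of wild-type oil and CCl4, then knockout oil and CCl4. It rose in both genotypes, from a higher oil level and to a lower CCl4 level in the knockout (interaction -3.39 ± 0.12).

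Some male-biased genes fell more in wild type. Because Ddx3y was lower in the knockout libraries, sex and genotype cannot be told apart for such genes. Mup17, a major urinary protein, had 133 and 143 FPKM in wild-type oil, 3.76 and 4.09 in wild-type CCl4, 41.1 and 34.7 in knockout oil and 9.64 and 12 in knockout CCl4. It was highest in wild-type oil and lowest in wild-type CCl4, with an interaction of 3.10 ± 0.18. Cyp4a12a, a male-biased fatty acid hydroxylase, fell by 2.11 in wild type, with a knockout response of -0.33 and an interaction of 1.78 ± 0.13. Of 46 tested growth hormone and sex-biased genes, 17 had a higher and 13 a lower interaction, against 14.3% and 19.0% of all tested genes. The median response of this list was -0.79 in wild type and -0.78 in the knockout. Aqp8, a water channel of hepatocytes, had 1.13 ± 0.16, and Igtp, an interferon-inducible GTPase, -1.32 ± 0.11.

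Genes whose interaction was set by oil levels numbered 104, of which 29 had a higher and 75 a lower interaction. Besides Lcn2, Lbp, Tuba1c and Glul they included Id2, an inhibitor of helix-loop-helix factors. Id2 had 14.8 and 16.4 FPKM in knockout oil against 49.1 to 71.3 FPKM in the other 6 libraries. The knockout oil libraries thus stood apart below the others, and the interaction was 1.64 ± 0.13. Of the 17 tested genes of MHC class II and antigen processing, 6 had this shape, against 1.03% of all tested genes, with 8 lower and 1 higher interaction in all, against 19.0% and 14.3%. With GC content and transcript length trends removed, 16 were lower. H2-Aa, a class II chain, had 2.57 and 2.1 FPKM in wild-type oil, 15.7 and 17.6 in wild-type CCl4, 8.17 and 10.3 in knockout oil and 16.9 and 17.8 in knockout CCl4. Wild-type oil was lowest, the CCl4 groups were close, and the interaction was -1.55 ± 0.19.

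MHC class II genes are expressed by macrophages, so the markers of these cells are given here. The 20 markers of Kupffer cells and macrophages, the resident phagocytes of the liver, summed to 0.0134 and 0.0142% of FPKM in wild-type oil, 0.0485 and 0.0523% in wild-type CCl4, 0.0771 and 0.09% in knockout oil and 0.126 and 0.139% in knockout CCl4. No marker of the list was listed at 0, the groups did not overlap, and knockout CCl4 was highest. Knockout oil lay above wild-type CCl4 in this sum and below it for H2-Aa. The oil level set 1 of the 20 markers, Lyz2, which encodes lysozyme. Lyz2 had 6.38 and 7.64 FPKM in wild-type oil and 114 and 121 in wild-type CCl4. In the knockout it had 32.5 and 43.7 in oil and 132 and 174 after CCl4, so its groups had the order of H2-Aa. Marco, also of the 20, had 0.7 and 1.07 FPKM in wild-type oil and 7.34 and 7.53 in wild-type CCl4. In the knockout it had 7.74 and 11.49 in oil and 62.97 and 75.86 after CCl4. Of the 20, 8 had a lower interaction and 12 did not pass, with a median of -0.74, a median response of 1.21 in wild type and 0.27 in the knockout. Lyz2 had an interaction of -1.91 ± 0.26, Ctss, cathepsin S, -1.83 ± 0.16, and Csf1r, the receptor for the macrophage growth factor, -1.45 ± 0.20. Sinusoidal endothelial markers made up 0.00243 to 0.00329% of FPKM in the wild-type libraries, 0.0175 and 0.0198% in knockout oil and 0.0105 and 0.00922% in knockout CCl4, with 4 lower interactions of 17 tested and 13 not past the test. Neutrophil and monocyte markers made up 0.00285 to 0.0056% in oil and 0.0188 to 0.0233% after CCl4, with 4 higher and 2 lower interactions of 16. Past the test were 40.0% of the macrophage, 23.5% of the endothelial and 37.5% of the neutrophil and monocyte markers. Over all tested genes it was 33.3%, with 14.3% higher and 19.0% lower. No endothelial marker was listed at 0 in any library, and 1 of the 17 neutrophil and monocyte markers was in 1 wild-type oil library. The part of these cells in the interactions of MHC class II, chemokine and other immune genes was not tested.

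**Figure D3:**
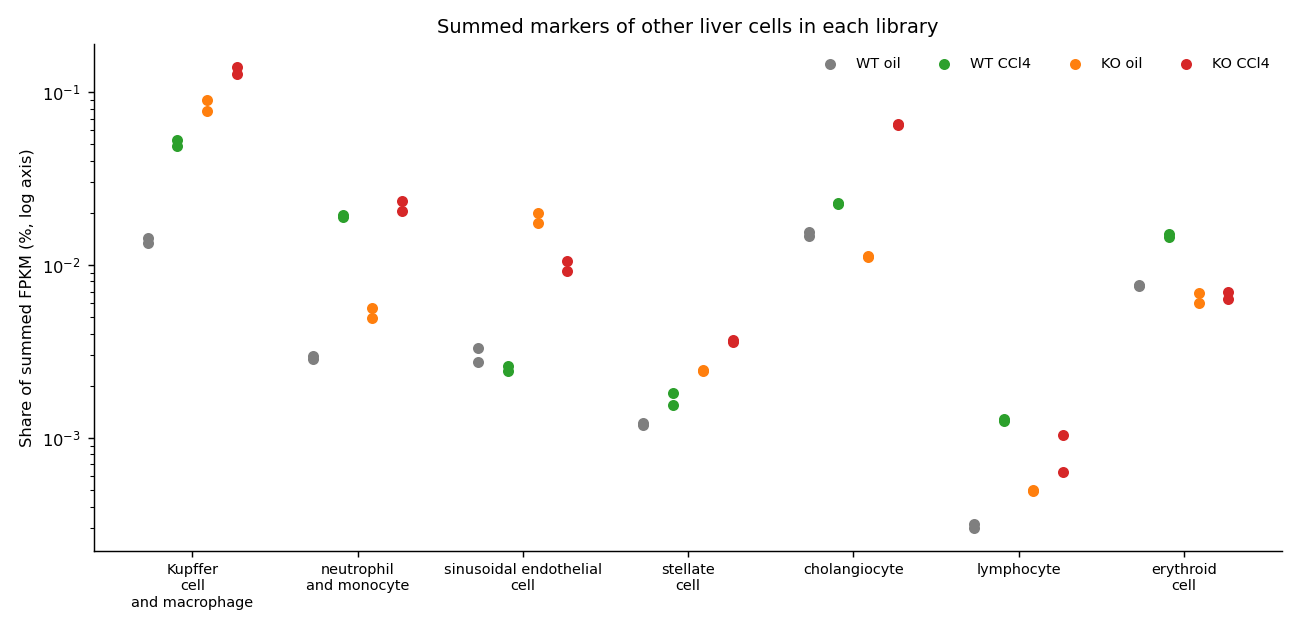
Share of all summed FPKM, in percent on a log axis, taken by the summed markers of each non-hepatocyte cell type, with 1 point per library and colours for the 4 groups (WT is wild type, KO the knockout). Kupffer cell and macrophage markers rise from 0.0134% in wild-type oil to 0.139% in knockout CCl4.

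Crossing differences, in which the knockout was above wild type under one treatment and below it under the other, were found for 473 genes, 118 with a higher and 355 with a lower interaction. Leaving out single wild-type libraries left 206 to 294. Cholesterol synthesis held both directions, since 6 of 25 tested genes had a higher and 7 a lower interaction, and 6 crossed. Over all tested genes 14.3% were higher, 19.0% were lower and 4.69% crossed. The promoters of Msmo1, a sterol oxidase of the pathway, and Insig1, the anchor that keeps SREBP factors in the endoplasmic reticulum, are shown as for Saa3, with CCAAT or its reverse complement in capitals. CCAAT is the motif bound by NF-Y, which acts with SREBP factors.
Msmo1 (chr8:64733579-64733828, minus strand): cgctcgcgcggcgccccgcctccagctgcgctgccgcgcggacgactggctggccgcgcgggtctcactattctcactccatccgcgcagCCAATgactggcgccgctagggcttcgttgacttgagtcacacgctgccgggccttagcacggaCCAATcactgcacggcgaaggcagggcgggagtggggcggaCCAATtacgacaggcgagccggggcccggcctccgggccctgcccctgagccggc
Insig1 (chr5:28071162-28071411, plus strand): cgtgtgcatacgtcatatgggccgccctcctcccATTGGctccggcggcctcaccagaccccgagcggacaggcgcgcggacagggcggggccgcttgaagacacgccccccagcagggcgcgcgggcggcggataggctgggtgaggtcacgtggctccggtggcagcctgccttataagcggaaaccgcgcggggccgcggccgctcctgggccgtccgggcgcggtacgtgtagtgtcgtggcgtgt
CCAAT was in 16 of 17 cholesterol synthesis promoters in the table (94.1%) and in 40.8% of those of all 8165 tested genes matched.

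Msmo1 had 63.02 and 62.8 FPKM in wild-type oil, 11.9 and 12.5 in wild-type CCl4, 21.4 and 20.8 in knockout oil and 13.4 and 13.5 in knockout CCl4. It fell in both genotypes to a similar CCl4 level from a higher wild-type oil level, with an interaction of 1.66 ± 0.10. Insig1 had 129 and 124, 42.8 and 38.7, 88.4 and 81.9 and 57.4 and 54.9 FPKM in the same order. The knockout lay below wild type in oil and above it after CCl4 (interaction 1.02 ± 0.11, limma adjusted p = 0.000956). Fdps, the farnesyl diphosphate synthase, had 1.5 ± 0.18. Acat2, the first thiolase of the pathway, went the other way with -1.43 ± 0.10.

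The metabolic lists that follow had more lower than higher interactions, to be read against 19.0% of all tested genes that were lower and 14.3% that were higher. In the urea cycle and amino acid breakdown 27 of 34 tested genes were lower and 3 higher, with a median interaction of -1.04. Bhmt, which remethylates homocysteine, had -3.32 ± 0.10 and Cth, of cysteine synthesis, -2.49 ± 0.10. In bile acid synthesis and transport 18 of 26 were lower and 4 higher, with a median of -1.4. Baat, which conjugates bile acids, had -3.44 ± 0.10, and Slc10a1, the bile acid uptake carrier, -2.33 ± 0.10. Pericentral genes, those high around the central vein, were lower in 19 of 28 and higher in 2, with a median of -1.62, and their median response was -0.12 in wild type and -1.98 in the knockout. Periportal genes, high around the portal vein, were lower in 14 of 26 and higher in 4, with a median of -0.48. P450 and drug metabolism genes were lower in 23 of 42 and higher in 4. Cyp1a2, a P450 that metabolizes caffeine, responded in opposite directions, with 145 and 145, 281 and 282, 205 and 220.1 and 37.8 and 40.3 FPKM in the order used above and an interaction of -3.36 ± 0.10.

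Glycolysis, gluconeogenesis and glycogen genes were lower in 18 of 29 and higher in 1, among them the glycogen phosphorylase Pygl (-2.66 ± 0.09) and the glycogen-targeting subunit Ppp1r3b (-3.67 ± 0.13). Fatty acid and triglyceride synthesis genes were lower in 14 of 26 and higher in 5, and their median genotype difference was 1.12 in oil and 0.57 after CCl4. Elovl6, a fatty acid elongase, had an interaction of -5.19 ± 0.59, but its knockout oil libraries held 50.8 and 18.8 FPKM and differed widely. Fatty acid oxidation genes were lower in 11 of 26 and higher in 3. Acot2, a mitochondrial thioesterase, was one of the higher with 2.77 ± 0.16, and Hadh, a dehydrogenase of the pathway, one of the lower with -1.86 ± 0.11. Respiratory chain genes were lower in 12 of 40 and higher in 1, with a median of -0.28, and the lower count was 5 with equal library medians and 25 with GC content and transcript length trends removed.

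Transcription factors of hepatocytes were lower in 19 of 30 and higher in 2. This count and those of the clock, iron and heme genes are to be read against 19.0% lower and 14.3% higher of all tested genes. Hlf (-2.67 ± 0.15) and Nr1i3, the xenobiotic receptor CAR (-2.64 ± 0.18), responded in the knockout alone, and Hnf4a, a master regulator of hepatocytes, had 111 and 109 FPKM in wild-type oil, 124 and 128 in wild-type CCl4, 147 and 150.1 in knockout oil and 74.96 and 81.1 in knockout CCl4. It was highest in knockout oil and lowest in knockout CCl4, with an interaction of -1.12 ± 0.10. Clock genes were lower in 9 of 19 and higher in 2, with Bhlhe41, a repressor, among the higher (2.22 ± 0.11). Iron and heme genes were lower in 12 of 34 and higher in 5. Hfe2, which encodes hemojuvelin, a BMP co-receptor that drives hepcidin, had -1.89 ± 0.14, with 2.32 and 2.25 FPKM in knockout CCl4 and 19.7 to 41.5 FPKM in the other 6 libraries. Hamp2, the second hepcidin gene, had 1.17 ± 0.13, and its sign turned to -0.04 with a pseudocount of 0.1. It had 195 and 190.1 FPKM in wild-type oil, 75.98 and 68.1 in wild-type CCl4 and 0.13 and 0.23 in knockout oil, and the knockout CCl4 libraries were both listed at 0.

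Genes of protein synthesis with an interaction past the test were on the higher side, but their number depended on the scaling. Of 71 tested cytosolic ribosomal protein genes 41 were higher and 30 did not pass limma's test, with a median interaction of 0.56 and a median response of 0.19 in wild type and 0.76 in the knockout. The count, to be read against 14.3% of all tested genes, was 23 with equal library medians and 67 under quantile normalization. Rps6 had 211 and 214 FPKM in wild-type oil, 213 and 210.0 in wild-type CCl4, 212 and 234 in knockout oil and 361 and 387 in knockout CCl4. The first 3 groups overlapped or lay close and knockout CCl4 was highest, with an interaction of 0.75 ± 0.11 (limma adjusted p = 0.00247). Proteasome genes were higher in 8 of 31 and 23 did not pass, with Psmd8, a lid subunit, at 1.19 ± 0.16. That count was 6 with equal library medians, 18 under quantile normalization and 13 with GC content and transcript length trends removed. Targets of NRF2, the oxidant-sensing transcription factor, divided into 11 higher and 6 lower of 33. Over all tested genes 14.3% were higher and 19.0% lower. Gclc, the catalytic subunit of glutathione synthesis, had 1.74 ± 0.16, and Gclm, its modifier subunit, -1.20 ± 0.10.

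The counts of the lists in this paragraph are also to be read against 19.0% of all tested genes that were lower and 14.3% that were higher. Heat shock genes were lower in 10 of 24 and higher in 1. Hspa1b, an inducible HSP70, had 7.38 and 7.66 FPKM in wild-type oil, 7.96 and 8.68 in wild-type CCl4, 44.8 and 48.9 in knockout oil and 3.38 and 3.46 in knockout CCl4. The knockout oil libraries stood high, and the interaction was -3.56 ± 0.12. Immediate early genes were lower in 13 of 24 and higher in 7, with median genotype differences of 1.37 in oil and 1.42 after CCl4. Cell cycle genes were lower in 11 of 24 and higher in 3. Chemokine and NF-kB target genes were lower in 11 of 30 and higher in 5, and interferon-stimulated genes lower in 9 of 40 and higher in 4. Complement and coagulation genes were lower in 10 of 40 and higher in 5. Both of these lists lay near the shares of all tested genes. Their lower counts were 15 and 16 with GC content and transcript length trends removed. Junction and polarity genes divided into 6 higher and 5 lower of 19, and apolipoproteins and plasma carriers into 4 higher and 6 lower of 26.

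**Figure D4:**
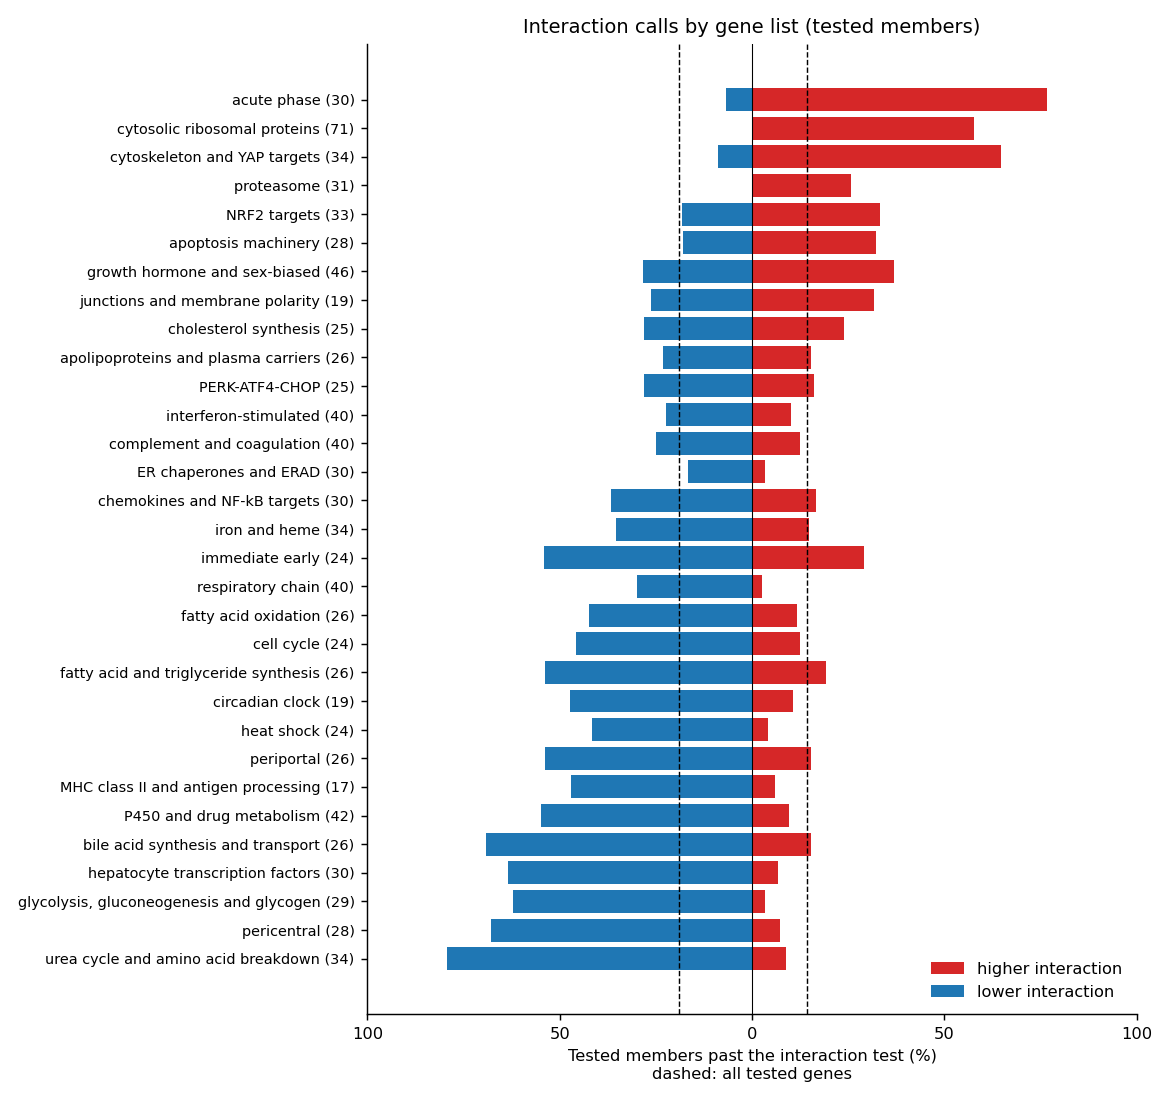
Percent of the tested members of each gene list with a higher (red, to the right) or lower (blue, to the left) interaction past an FDR of 0.05 in limma's test, with the number tested in brackets; dashed lines mark 14.3% and 19.0% of all tested genes. Acute phase, cytoskeletal and ribosomal protein genes reach furthest to the right, and the bar of the last depends on the scaling.

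The genes of the stress pathway of PERK did not move as one group. PERK senses unfolded protein in the endoplasmic reticulum and slows translation, ATF4 is the transcription factor made under that signal, and CHOP, encoded by Ddit3, is its pro-apoptotic target. Eif2ak3, which encodes PERK, had 2.96 and 3.03 FPKM in wild-type oil, 3.33 and 4.09 in wild-type CCl4, 3.58 and 3.99 in knockout oil and 37.5 and 35.4 in knockout CCl4. The knockout CCl4 libraries stood far above the other 6, and the interaction was 2.74 ± 0.15 (limma adjusted p = 5.48e-05). Its wild-type response, 0.23, did not pass the test. Atf4 had 37.03 and 35.7, 40.7 and 36.6, 37.8 and 41.3 and 55.1 and 67.7 FPKM, with knockout CCl4 highest and the oil groups not overlapping but close. Its interaction of 0.53 ± 0.16 was near the threshold (limma adjusted p = 0.0465) and was lost under 13 of the 20 alternatives, among them the omission of any wild-type library, of knockout CCl4 replicate 2 or of either knockout oil library. Over all 20 its value ran from 0.38 to 0.69. Ddit3 rose in both genotypes, by 0.87 in wild type and 1.28 in the knockout, and its interaction of 0.41 ± 0.19 did not pass (limma adjusted p = 0.157). Without replicate 1 of both knockout groups Ddit3 had an interaction of 0.59, and without replicate 2 of both 0.22. Its CCl4 libraries held 16.3 and 13.7 FPKM in wild type and 14.8 and 16.6 in the knockout, and these ranges overlapped.

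Of 25 tested genes of the PERK, ATF4 and CHOP branch, 4 had a higher and 7 a lower interaction, with a median of -0.2 and 14 not past the test. Over all tested genes 14.3% were higher and 19.0% lower. Under quantile normalization 6 were higher and 7 lower. Gdf15, a stress cytokine, had 22.3 and 25.3 FPKM in wild-type oil, 25.4 and 20.1 in wild-type CCl4, 36.5 and 43.6 in knockout oil and 166 and 198 in knockout CCl4. Knockout CCl4 was highest and the wild-type groups overlapped (interaction 2.23 ± 0.22). Slc3a2, an amino acid transporter chain, had 1.40 ± 0.16. Ddit4, which restrains mTORC1, was lower with -1.47 ± 0.12, from 50.5 and 56.3 FPKM in knockout oil to 9.03 and 9.54 in knockout CCl4. Of 30 endoplasmic reticulum chaperone and degradation genes, 1 was higher and 5 lower. Hspa5, the chaperone BiP, had 580.4 and 590.2 and 710.2 and 721 FPKM in wild type and 251 and 218 and 303 and 245 in the knockout, oil first. All knockout libraries lay below all wild-type libraries, and the interaction of -0.07 ± 0.16 did not pass (limma adjusted p = 0.785), and its sign changed under 4 alternatives. Sdf2l1, a chaperone partner, was the higher one with 0.82 ± 0.19, a call lost when any wild-type library was left out (0.54 to 0.99 over all alternatives), and Herpud1, of degradation, was lower with -0.79 ± 0.15.

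Apoptosis genes held 9 higher and 5 lower interactions of 28 tested, with a median of 0.14. Over all tested genes 14.3% were higher and 19.0% lower, and the lower share of the list was near the latter. Those that promote and those that prevent cell death were both among the higher. Bax, which permeabilizes mitochondria, had 17.99 and 20.3 FPKM in wild-type oil, 22.5 and 22.3 in wild-type CCl4, 18.5 and 22.4 in knockout oil and 59.9 and 70.05 in knockout CCl4. Bcl2l1, which encodes the opposing protein BCL-xL, had 12.3 and 12.5, 17.1 and 15.9, 15.7 and 18.6 and 72.7 and 82.5 FPKM. Knockout CCl4 was highest for both, and their interactions were 1.40 ± 0.18 (limma adjusted p = 0.00149) and 1.73 ± 0.15 (limma adjusted p = 0.000359). Fas, a death receptor chosen here after its values were seen, was lower in knockout CCl4, with 2.8 and 1.71 FPKM and an interaction of -1.63 ± 0.26.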

How the data were processed

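RNA sequencing libraries of primary hepatocytes in 4 groups of 2 were compared. The deposited table gives FPKM per gene and library, per the file headers, and the build mm8 is named per the submitters' processing notes. No aligner, counting tool or read depth is named (not given in the sources used here), so precision is known only from the spread between libraries. Because FPKM is a share of the mapped fragments, a gene can appear lower where others take more reads. Columns were matched to libraries by name, and 1 of 16338 rows, which names no gene, was left out. Entrez identifiers matched RefSeq for 99.82%, and 23 symbols were restored through them.

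Values were taken as log2(FPKM + 1), and the 4 groups were fitted in one model with limma 3.58.1 (trended prior, R 4.3.3, 4 residual and 2.61 prior degrees of freedom). All tests are two-sided, with Benjamini-Hochberg adjustment over 10082 genes and an FDR of 0.05. Values after ± are standard errors. Responses and levels were sorted with limits of 0.5 (small) and 1 (large) on the log2 scale. The fit was also run on simulated data with equal, independent spread in all libraries. The knockout libraries differ from that, so the run says nothing about the error rate here. Genes were named by a rule of size, adjusted p and list membership: 7 genes of the study's question, the 12 largest interactions in each direction and the 8 largest of each shape, of genes above median expression, and 4 of each list. The members, lists and rule were chosen with earlier results of these data known. Alternatives were other scalings, a pseudocount of 0.1, no filter, replicate blocks, weights by genotype, an FDR of 0.01, GC content and length trends, other shape limits, and libraries left out. Plots used matplotlib 3.10.9 (Python 3.11.15). Results of some genes are not reported here.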

Additional observations from a re-analysis of the deposited data

Results flagged for a closer look

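The CCl4 response differed between genotypes, by limma's test of the interaction, for 3355 genes. The 12 largest higher interactions among genes above median expression were Saa3 at 6.04, Lcn2 at 5.84, Saa2 at 5.34, Saa1 at 4.81, Cyp2a5 at 4.57 and Cldn14 at 3.85, then Tnfrsf12a at 3.63, Tubb2a at 3.57, Cyp17a1 at 3.34, S100a10 at 3.24, Ly6d at 3.22 and Mt1 at 3.16, all on the log2(FPKM + 1) scale. The 12 largest lower ones were Rgs16 at -5.84, Serpina6 at -5.71, Inmt at -5.67, Elovl6 at -5.19, Cyp2c50 at -5.18 and Hsd3b3 at -4.90, then Nrep at -4.75, Cxcl1 at -4.62, Akr1d1 at -4.61, Cyp2c54 at -4.58, Apol7a at -4.47 and Cyp2e1 at -4.46. Of the genes of the study's question, Eif2ak3 had 2.74, Hamp2 1.17 and Atf4 0.53.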

How the results depend on the processing

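Of 210 named genes, 166 kept their call under all 20 alternatives. Signs reversed for 4 genes. Hamp2 was -0.04 with a pseudocount of 0.1. Hspa5 was 0.01 with equal library medians, 0.04 without GC content and length trends, 0.08 without knockout CCl4 replicate 2 and 0.03 without knockout oil replicate 1, with -0.22 as the lowest value of the single-library omissions. Hamp was -0.18 without those trends, -0.37 without knockout oil replicate 2, 0.90 without its replicate 1 and -0.32 without replicate 2 of both knockout groups. Gzma, of lymphocytes, ran from -0.25 to 0.40 without single libraries and was -0.17 without replicate 1 of both knockout groups.

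Counts are given in the order of the report. Leaving out single libraries gave 2007 to 3892 calls, 809 to 1671 higher and 1191 to 2221 lower, 46 to 213 opposite, 118 to 353 larger in the knockout, 36 to 69 larger in wild type and 206 to 538 crossing, and the low ends came from omitting wild-type libraries. Without replicate 1 or replicate 2 of both knockout groups there were 5412 and 5241 calls, 2213 higher (replicate 1) and 3199 and 3091 lower, 652 and 622 opposite, 771 and 766 larger in the knockout, 123 and 118 larger in wild type, and 894 and 935 crossing. The labels pair no libraries. The replicate differences of both knockout groups correlated at 0.803 across genes and those of wild type at -0.037. A replicate block over all groups kept 3235 of the 3355 calls (96.4%), while a replicate block in the knockout alone gave 5876 calls, 2436 higher, 3440 lower, 675 opposite, 832 larger in the knockout, 160 larger in wild type and 1073 crossing. An FDR of 0.01 gave 1844 calls, 730 higher, 1114 lower, 58 opposite, 136 larger in the knockout, 28 larger in wild type and 202 crossing. At least 2-fold left 1269, 478 higher, 791 lower, 133 larger in the knockout, 25 larger in wild type and 315 crossing. Equal medians gave 101 opposite and 314 crossing, a pseudocount of 0.1 70 wild-type-only, 107 larger in wild type and 159 set by oil, weights by genotype 335 opposite and 44 larger in wild type, and removal of GC content and length trends 321 opposite and 525 larger in the knockout. A small limit of 0.25 gave 630 knockout-only, 23 wild-type-only, 60 set by oil and 441 set by CCl4 levels, and a large limit of 1.5 gave 440, 12, 30 and 260. List medians under other scalings, chosen after seeing the data, changed sign for lists near 0, among them cholesterol synthesis, which was -0.18 with a pseudocount of 0.1. The median of the 5 tested erythroid markers also changed, from 0.25 to -0.18 with GC content and length trends removed. List counts moved too, among them that of ribosomal proteins (23 to 67 higher of 71). The causes were not tested, apart from limits that are stricter by construction. Sequencing depth is unknown, so no value has a counting interval.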

Other observations

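Cholangiocyte markers, 10 genes of the bile duct lining, summed to 0.0642 and 0.0653% of FPKM in knockout CCl4, against 0.0111 to 0.0226% in the other 6 libraries. Tm4sf4, a tetraspanin-like membrane protein gene, alone gave 335 and 381 of the 379.6 and 404 FPKM summed in knockout CCl4. Krt19, a keratin of bile duct cells, lay between 0.08 and 1.97 FPKM in all 8 libraries, and Cftr, the chloride channel of these cells, at or below 0.01 FPKM. Spp1, osteopontin, had 4.59 and 5.4 FPKM in wild-type oil, 36.6 and 38.4 in wild-type CCl4, 10.8 and 5.41 in knockout oil and 39.0 and 17.1 in knockout CCl4. Eif2s3y, a Y-linked gene, had 14.4 and 4.41 FPKM in knockout oil and 5.47 and 1.75 FPKM in knockout CCl4, against 13.1 to 18.5 FPKM in wild type. Correlations of replicate differences between the genotypes ran from -0.253 to 0.219.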
